A study of Mus musculus with 8 samples.

Results

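Mucins are large glycoproteins of epithelial surfaces, and the 9 mouse mucin genes described here are Muc1, Muc2, Muc4, Muc5ac, Muc5b, Muc6, Muc13, Muc16 and Muc20. They were taken by name from a table of 31228 genes, and each of the 9 names matched a single entry. Polyadenylated RNA had been sequenced from C57BL/6 mice in 8 libraries. These were 1 library of extrahepatic bile duct epithelium (bile epithelium below), 1 of pancreatic duct epithelium (pancreas epithelium), 3 of organoids grown from extrahepatic bile duct and 3 of organoids grown from pancreatic duct. The epithelia were dissected, digested with collagenase and lysed without culture. The organoids, which are hollow epithelial cultures in Matrigel, were taken after 3 to 4 passages. Their medium held EGF, FGF10, Noggin and R-Spondin-1, with Wnt3A and Y27632 only until hollow organoids had formed. Genotype, age, the number of animals and any pooling are not given in the sources used here, nor whether the 3 organoid libraries of an organ came from separate animals, so p-values measure only the spread between these libraries, which may be technical. The comparisons ask how alike the mucin genes of the ducts are, and what mucin mRNA organoids keep.

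Mucins fall into secreted and membrane-bound kinds. Muc2, Muc5ac, Muc5b and Muc6 are secreted, link into polymers through cysteine-rich ends and form the mucus gel: Muc2 is the main mucin of intestinal goblet cells, Muc5ac of the gastric surface, Muc5b of airway and salivary glands, and Muc6 of gastric and duodenal glands. Muc1, Muc4, Muc13, Muc16 and Muc20 span the membrane and form part of the glycocalyx of the apical cell surface. All carry long stretches rich in serine, threonine and proline to which O-linked sugars are attached. MUC1 is the membrane mucin of normal ducts in pancreas and biliary tract, and MUC5AC is known for appearing in pancreatic and biliary precursor lesions.

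The secreted mucins lie side by side on chromosome 7 (coordinates of the deposited table, which for all 9 genes are those of GENCODE M21 on GRCm38): Muc6 (ENSMUSG00000048191, 141633456 to 141655319, minus strand), Muc2 (ENSMUSG00000025515, 141690340 to 141754693), Muc5ac (ENSMUSG00000037974, 141788972 to 141819231) and Muc5b (ENSMUSG00000066108, 141839070 to 141873084), the last 3 on the plus strand. The whole cluster spans 239629 bases. On chromosome 16 lie Muc4 (ENSMUSG00000079620, 32735886 to 32782391, plus strand), Muc20 (ENSMUSG00000035638, 32777419 to 32797435, minus strand) and Muc13 (ENSMUSG00000022824, 33794037 to 33819934, plus strand). Muc1 (ENSMUSG00000042784) is on chromosome 3 from 89229057 to 89233381, plus strand, and Muc16 (ENSMUSG00000109564) on chromosome 9 from 18495455 to 18674530, minus strand. Muc4 and Muc20 overlap tail to tail. They share 627 exon bases in GENCODE M21, which is 5.33% of the exon length of Muc4 and 15.6% of that of Muc20, and whether counting used strand is not given, so reads of that stretch cannot be assigned with certainty.

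The promoters of Muc6, Muc13 and Muc4 are shown because these genes had the widest differences between bile epithelium and every other library, and that of Muc1 because it made up most of the mucin mRNA of every organoid. Each is the 250 bases before the RefSeq start site (GRCm38.p6; for Muc13 the first of 2), 5′ to 3′ on the gene's strand, with motif matches in capitals. They lie at chr7:141655394-141655643 (minus strand), chr16:33793787-33794036, chr16:32735636-32735885 and chr3:89228806-89229055 (plus strand each).
Muc6: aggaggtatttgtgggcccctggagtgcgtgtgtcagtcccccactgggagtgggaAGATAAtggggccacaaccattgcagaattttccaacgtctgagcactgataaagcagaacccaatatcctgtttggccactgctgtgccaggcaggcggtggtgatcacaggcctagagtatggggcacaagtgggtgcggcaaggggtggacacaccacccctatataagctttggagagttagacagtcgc
Muc13: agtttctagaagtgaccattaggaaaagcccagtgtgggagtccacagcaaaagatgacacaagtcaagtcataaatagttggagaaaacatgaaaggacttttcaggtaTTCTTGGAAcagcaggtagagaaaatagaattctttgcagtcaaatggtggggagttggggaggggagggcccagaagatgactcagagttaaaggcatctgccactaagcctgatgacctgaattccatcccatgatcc
Muc4: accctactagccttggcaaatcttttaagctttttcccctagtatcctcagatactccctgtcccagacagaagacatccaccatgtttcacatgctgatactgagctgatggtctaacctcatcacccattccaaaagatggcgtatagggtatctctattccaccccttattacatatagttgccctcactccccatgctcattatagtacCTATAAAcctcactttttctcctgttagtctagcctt
Muc1: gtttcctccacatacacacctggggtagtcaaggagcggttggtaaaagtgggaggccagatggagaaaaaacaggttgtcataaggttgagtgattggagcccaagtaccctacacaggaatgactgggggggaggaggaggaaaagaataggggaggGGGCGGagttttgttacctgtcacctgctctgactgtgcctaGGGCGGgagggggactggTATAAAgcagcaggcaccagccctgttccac
Of the 9 genes, 7 had a promoter in the RefSeq table, and those of Muc5ac and Muc5b are named only. The motifs were searched on both strands, and in brackets is the share of all 32851 mouse promoters of the same length that hold each: the letters TATAAA for the so-called TATA box (12.4%), GGGCGG for the GC box (32.7%), AGATAA for factors of the GATA family (9.99%), TTCNNNGAA for STAT (7.02%), TTTATNG for CDX (9.81%), TGTTTAC for FOXA (3.17%), CACGTG for the E-box (6.02%) and CAAAGTCCA for HNF4 (0.384%). Muc1 has a TATA box 31 bases and a GC box 49 and 91 bases before its start site. Muc4 has a TATA box 36 bases before its start, and a CDX match on the other strand overlaps it. Muc6 has a GATA match 194 bases and Muc13 a STAT match 140 bases before the start. Of promoters not printed, that of the other Muc13 start has an HNF4 match on the other strand at 186 bases and that of Muc20 a FOXA match on the other strand at 248 bases. Muc2, also not printed, has the letters TATAAA at 174 bases, GATA matches at 169 and 159 bases, the former overlapping those letters, and a GC box on the other strand at 52 bases. Muc16, not printed either, holds none of the 8 motifs. None of them is in the window before more than 2 of these 7 genes apart from the letters TATAAA, which 3 hold. Only the exact letters were sought, so other spellings, such as TATATAAG near the end of the Muc6 window, are not marked. A match is a description of letters and not of a bound site.

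The deposited values are FPKM, reads per kilobase of exon scaled to the reads of the library, and from their steps read numbers could be recovered. The libraries held between 12876469 and 20828206 reads or read pairs. The exact and Poisson intervals cover counting error only, and those given with limma results come from the spread between libraries. The markers fixed for duct epithelium were present in every library, with Krt19 at 432 FPKM in the bile epithelium and 83.9 in the pancreas epithelium and at 699 to 2097 in organoids. The epithelial libraries also held RNA of other cells. The 6 acinar markers summed to 16490 FPKM in the bile epithelium and 34490 in the pancreas epithelium against 1.66 to 8.17 in organoids, the 5 fibroblast markers to 1003 and 1136 against 0.145 to 2.71, and the 4 endothelial markers to 425 and 711 against 0.192 to 0.368. The 5 immune markers summed to 342.5 and 328 against 2.42 to 11.9. Mitochondrial genes held 24.9% and 18.8% of all FPKM in the bile and pancreas epithelia and 5.43% to 7.29% in organoids, and the part of these differences in the mucin values was not tested. In such tissue a lower value can mean fewer cells of a type or less RNA per cell, and these cannot be told apart. A higher value in organoids can likewise mean a larger share of epithelial cells or more RNA per cell, which cannot be told apart either.

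Bile duct epithelium held by far the most mucin mRNA, and it was of another make-up than in the other 7 libraries. The 9 genes summed to 447 FPKM there and to 37.7 FPKM in pancreas epithelium. In bile epithelium Muc6 took 42.5% of the sum, Muc1 27.9% and Muc13 24.4%. In pancreas epithelium Muc1 took 90.2%. Organoids ranged from 23.4 to 168 FPKM in all, of which Muc1 took 92.2% to 99.1%. Without Muc1, the other 8 genes summed to 322 FPKM in bile epithelium, 3.69 in pancreas epithelium and 0.664 to 2.54 in the organoids. At least 1 FPKM was reached by 6 of the 9 genes in bile epithelium, by 2 in pancreas epithelium and by 1 or 2 in each organoid.

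**Figure D1:**
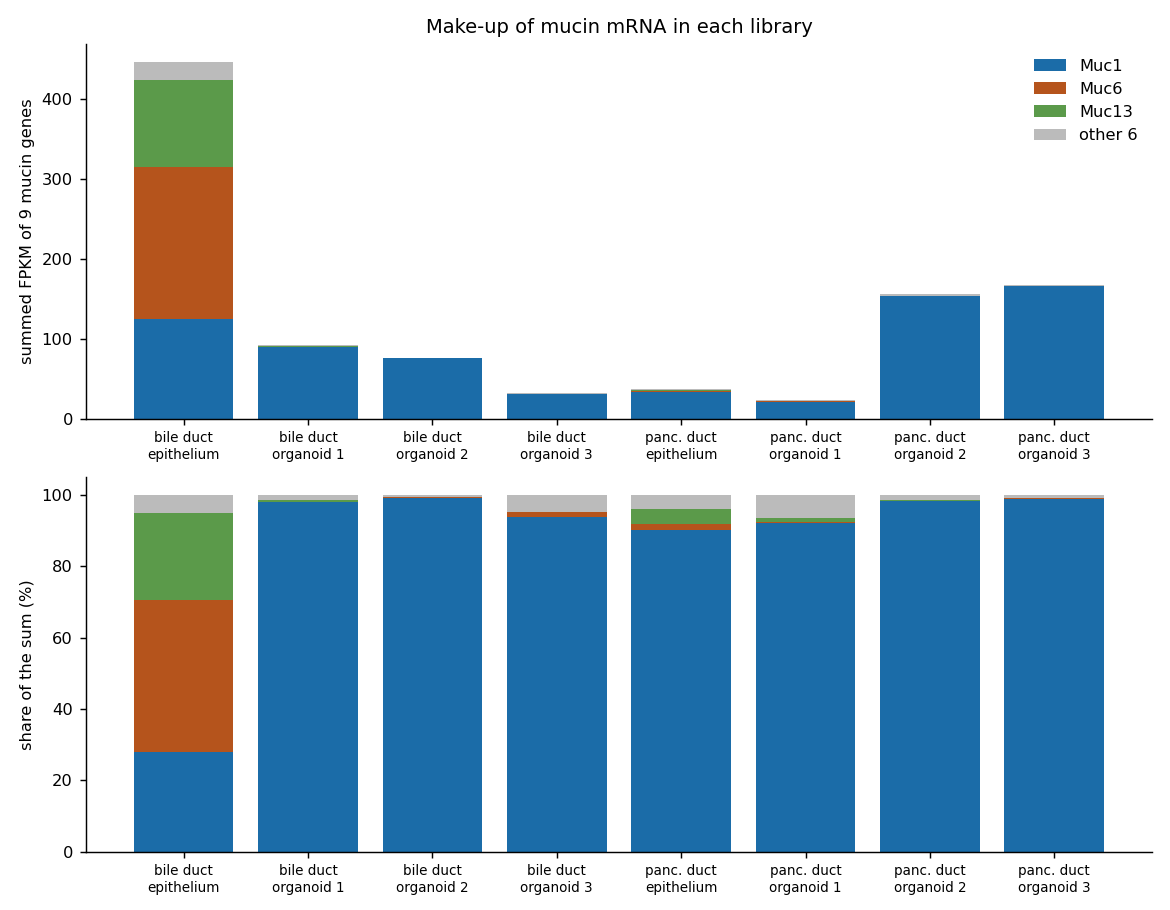
Summed FPKM of the 9 mucin genes in each library (upper bars) and the share of that sum in percent (lower bars), split into Muc1, Muc6, Muc13 and the other 6 genes. Bile duct epithelium reaches 447 FPKM with 3 large shares, and in every other library Muc1 makes up at least 90.2% of the sum.

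Muc6, the gland mucin, was the most abundant mucin of bile epithelium and scarce everywhere else. It had 190.0 FPKM in bile epithelium, resting on 22896 reads, and 0.615 FPKM in pancreas epithelium, resting on 89 reads. Bile duct organoids 1, 2 and 3 had 0.0240, 0.289 and 0.424 FPKM, and pancreatic duct organoids 1, 2 and 3 had 0.0485, 0.0425 and 0.287 FPKM. All 6 organoids thus lay below both epithelia, and the organoid groups overlapped, each with low and higher cultures. The bile duct to pancreatic duct ratio of the epithelia was 309 (95% exact interval 251 to 385), and bile epithelium exceeded the mean of its organoids 774-fold. On the log2(scaled FPKM + 1) scale used for all differences below, which understates differences of weakly expressed genes, the epithelial difference was 6.95. Scaling here means dividing each library by a trimmed mean of its log ratios to a reference library.

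Muc2, the goblet cell mucin, followed the same order at a lower level. It had 5.15 FPKM (473 reads) in the bile epithelium and 0.263 FPKM (29 reads) in the pancreas epithelium. The bile duct organoids had 0.0866, 0.119 and 0.320 FPKM and the pancreatic duct organoids 0.0273, 0.0239 and 0.108 FPKM, or 3 to 42 reads each. Bile duct organoid 3 was above pancreas epithelium, and the other 5 organoids were below it. The ratio of the epithelia was 19.6 (95% exact interval 13.4 to 29.6), and bile epithelium was 29.4-fold above its organoids' mean. GENCODE M21 tags the Muc2 locus as fragmented in the assembly, so its level may be off in every library.

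Muc5ac, the surface mucin of the stomach, was read in organoids alone, at a low level. It was listed at 0 in both epithelia and had reads in all 6 organoids. Bile duct organoids 1, 2 and 3 had 49, 14 and 17 reads, that is 0.256, 0.0652 and 0.0860 FPKM. Pancreatic duct organoids 1, 2 and 3 had 23, 142 and 38 reads, that is 0.139, 0.751 and 0.170 FPKM. Galnt2, an enzyme of most cells, was also listed at 0 in both epithelia and had 3 to 9 reads in every organoid, so a listed 0 is not read as absence and no fold is given. No organoid reached 1 FPKM, so Muc5ac entered none of the tests with a level filter. Fitted without the filter, its organoid to epithelium difference over both organs was 0.29 (SE 0.18, limma adjusted p = 0.243), and that between the organoid groups, which overlapped, was -0.23 (SE 0.19, limma adjusted p = 0.986). Muc5b, the airway and salivary gland mucin, had 1 read in bile epithelium, 0 in pancreas epithelium and 0 to 5 in the organoids, with only pancreatic duct organoid 3 above 3 reads, so no difference is given.

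Among the membrane mucins, Muc13, a mucin of the intestinal brush border, had the widest difference between epithelium and culture. It had 109 FPKM (4269 reads) in the bile epithelium and 1.60 FPKM (75 reads) in the pancreas epithelium. Bile duct organoids 1, 2 and 3 had 23, 0 and 2 reads (0.425, 0 and 0.0358 FPKM), and pancreatic duct organoids 1, 2 and 3 had 11, 7 and 3 reads (0.235, 0.131 and 0.0474 FPKM). Every organoid was below both epithelia, and the organoid groups overlapped. The ratio of the epithelia was 68.3 (95% exact interval 54.4 to 87.03). Muc13 was lower than in its own epithelium by a log2 difference of -6.68 in bile duct (range -6.89 to -6.37 over 3 organoids) and -1.26 in pancreatic duct (range -1.38 to -1.14). It shares 184 exon bases, 6.06% of its exon length, with the predicted gene Gm15657 on the other strand.

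Muc4, a membrane mucin of many wet epithelia and a ligand of the receptor ErbB2, stood out in bile epithelium alone. It had 13.7 FPKM (2079 reads) there and 0.0330 FPKM (6 reads) in pancreas epithelium. The bile duct organoids had 17, 6 and 3 reads and the pancreatic duct organoids 10, 20 and 5, or 0.0139 to 0.0967 FPKM over the 6 cultures, which lay on both sides of pancreas epithelium. The ratio of the epithelia was 416 (95% exact interval 191 to 1135), and the log2 difference of bile duct organoids from their epithelium was -3.93 (range -3.97 to -3.87).

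Muc20, the overlapping neighbour of Muc4 and a small membrane mucin known to bind the MET receptor, was weakly expressed in nearly every library. It had 3.68 FPKM (191 reads) in the bile epithelium and 0.996 FPKM (62 reads) in the pancreas epithelium. The bile duct organoids had 0.9898, 0.149 and 1.11 FPKM, with bile duct organoid 2 far below the rest, and the pancreatic duct organoids had 1.32, 1.47 and 1.10 FPKM. All 3 bile duct organoids were below their epithelium. The 3 pancreatic duct organoids were above theirs as deposited, and after scaling their log2 differences ran from -0.03 to 0.25. In bile epithelium, the library with the most Muc20, Muc4 had 2079 reads across the shared stretch and the rest of the gene, and the part of the overlap in the Muc20 value was not tested.

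Muc16, known as CA125 and a mucin of mesothelium, airway and the female reproductive tract, was the member that was higher in pancreatic duct than in bile epithelium, at a very low level. It had 0.182 FPKM (74 reads) in pancreatic duct and 0.0531 FPKM (18 reads) in bile epithelium, a bile duct to pancreatic duct ratio of 0.292 (95% exact interval 0.164 to 0.494). The organoids had 0 to 11 reads, or at most 0.0237 FPKM, all below both epithelia. Of the mesothelial markers, Upk3b was 7.79 FPKM in pancreatic duct and 3.52 in bile epithelium and Wt1 3.499 and 1.04, against at most 0.422 and 0.147 in organoids. Krt14 of the same list went the other way, with 0.258 FPKM in pancreatic duct and 3.05 in bile epithelium and 1.11 to 17.6 in organoids. Of the 6 markers 1 was higher and 1 lower in bile duct by a log2 difference of 1 or more, beside 9.07% and 4.31% of all genes counted, and their part in the Muc16 values was not tested. Krt14, the higher one, was counted only through bile epithelium. All 6 mesothelial markers summed to 25.4 FPKM in the bile and 43.4 FPKM in the pancreas epithelium and to between 348 and 856 FPKM in organoids, where nearly all was Msln. Msln, which encodes the MUC16-binding protein mesothelin, rose in organoids from 14.6 FPKM in the bile epithelium and 26.9 FPKM in the pancreas epithelium to between 345 and 853 FPKM (log2 difference 4.53, SE 0.44, limma adjusted p = 0.000127).

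**Figure D2:**
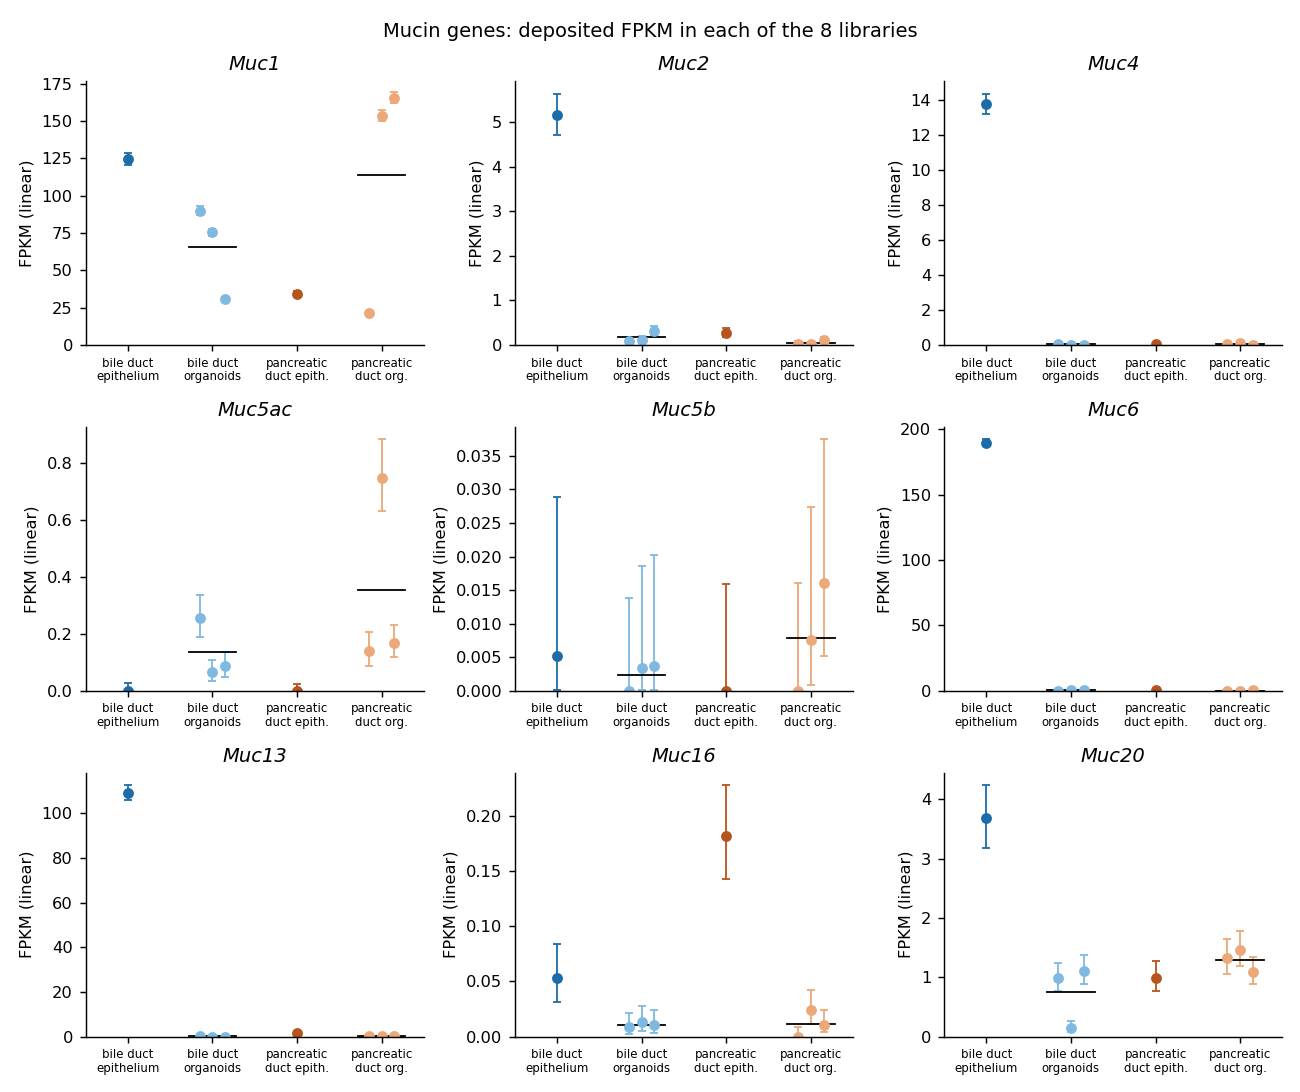
Deposited FPKM of each mucin gene on its own linear axis, with a point for each library, its 95% Poisson interval of counting error, and a line at the mean of 3 organoids. Muc2, Muc4, Muc6 and Muc13 stand high in bile epithelium alone, Muc5ac is above 0 in organoids alone, and Muc1 spreads from 21.5 to 166 FPKM among organoids.

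Muc1, the membrane mucin of duct cells, was the single member at 20 FPKM or more in all 8 libraries. It had 125 FPKM (3770 reads) in the bile epithelium and 33.98 FPKM (1232 reads) in the pancreas epithelium, a ratio of 3.67 (95% exact interval 3.44 to 3.92). Bile duct organoids 1, 2 and 3 had 90.0, 75.5 and 30.6 FPKM, and pancreatic duct organoids 1, 2 and 3 had 21.5, 154 and 166 FPKM. The cultures of an organ did not keep together: bile duct organoid 3 and pancreatic duct organoid 1 were lowest, and pancreatic duct organoids 2 and 3 were above bile epithelium. The highest and lowest organoid differed 7.70-fold. The SD of Muc1 within organoid groups was 1.30 on the log2 scale, against a median of 0.214 over 12106 genes tested, so that 98.9% of those genes spread no more. Among the 501 genes nearest to it in mean level the share was 98.6%. For Muc20 the SD was 0.359, at 75.2% of all genes and 56.2% of the 429 nearest to it in level.

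**Figure D3:**
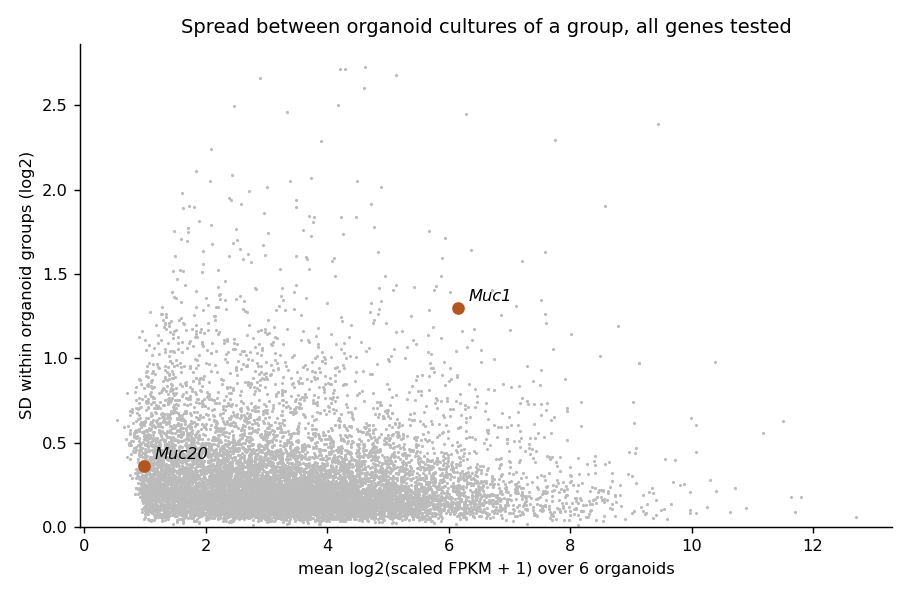
Each grey point is a gene tested in the organoids, with its mean log2(scaled FPKM + 1) over 6 cultures on the horizontal axis and the SD within organoid groups (log2) on the vertical axis. Muc1 lies near the upper edge at an SD of 1.30, and Muc20 lies in the main cloud at 0.359.

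The genes next to Muc1 varied less from culture to culture. The nearest protein-coding genes of the table are Mtx1 and Thbs3 before it and Trim46 and Krtcap2 after it. The highest over the lowest organoid was 1.42 for Mtx1, 2.37 for Thbs3, 3.02 for Trim46 and 1.40 for Krtcap2, compared with 7.70 for Muc1. These are ratios of single cultures and were not tested against each other.

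Between the organoid groups neither mucin that could be tested differed beyond the spread of the cultures. Only Muc1 and Muc20 reached 1 FPKM in at least 3 organoids and were tested. Neither passed in limma's test (0 of 2, beside 0 of 12106 genes or 0% of all tested), and neither had an unadjusted p under 0.05, which 310 genes or 2.56% had. The bile duct minus pancreatic duct difference was -0.48 for Muc1 (SE 0.85, 95% interval -2.54 to 1.59, limma adjusted p = 1.00) and -0.44 for Muc20 (SE 0.27, 95% interval -1.11 to 0.22, limma adjusted p = 1.00). The interval for Muc1 leaves room for a several-fold difference in either direction. Without bile duct organoid 3 its difference was 0.01, and without pancreatic duct organoid 1 it was -1.40. That of Muc20 was -0.16 without bile duct organoid 2, -1.02 with a pseudocount of 0.1 and -1.26 with voom on recovered reads.

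Between epithelia and organoids, with organ as a covariate over all 8 libraries, Muc1, Muc13 and Muc20 had the 1 FPKM in at least 2 libraries that the fit required. Of these 3, Muc13 passed as lower in organoids, where 27% of 14919 genes tested were lower, 32.3% higher and 59.2% either. Muc13 reached the filter only through the epithelia, in which it is high, so a lower call was the only one open to it and this count is a description, not support for a fall. Its log2 difference was -3.98 (SE 1.04, limma adjusted p = 0.0140, and 0.0241 fitted without the filter), and the size depends on the scale, with -6.14 at a pseudocount of 0.1 and -7.78 with voom on recovered reads. In 6 of 6 organoids it was below either epithelium. Without either epithelial library it was not tested. Without bile epithelium no mucin passed. Muc20 had a difference of -0.72 (SE 0.40, limma adjusted p = 0.158), which became -1.57 (limma adjusted p = 0.0238) without pancreas epithelium and 0.13 without bile epithelium. Muc1 had -0.05 (SE 0.92, 95% interval -2.22 to 2.13, limma adjusted p = 0.968). Muc2, Muc4 and Muc6 passed the level filter in bile epithelium alone and so were not in this test. Fitted without the filter, which was planned as an alternative, Muc2 differed by -1.39 (SE 0.44, limma adjusted p = 0.0430), Muc4 by -1.95 (SE 0.77, limma adjusted p = 0.0894), Muc6 by -3.99 (SE 1.33, limma adjusted p = 0.0538) and Muc16 by -0.15 (SE 0.04, limma adjusted p = 0.0183).

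Within an organ no test was made, because each epithelium is a single library. Genes were counted there with at least 1 FPKM in the epithelium or on average in the organoids, and the difference is that of the organoids' average FPKM from the epithelium, taken after averaging. Between the epithelia, all 6 members with at least 1 FPKM on either side (Muc1, Muc2, Muc4, Muc6, Muc13 and Muc20) were higher in bile duct by a log2 difference of 1 or more, as 9.07% of all 15092 genes counted were (13.4% in either direction). Muc2, Muc4, Muc6 and Muc20 were counted only through their level in bile epithelium, so they could not have been counted as lower there. From bile epithelium to its organoids the same 6 were lower by 1 or more with all 3 organoids on the same side, where 24.3% of 15227 genes were lower and 15.3% higher. All of them but Muc1 were counted only through the epithelium, where they are high, so their count is a description. These comparisons share the bile epithelium library. Muc1 stood nearest the limit, with -1.06 (range -2.20 to -0.54), and fell short of it without bile duct organoid 3, at -0.71, and with FPKM as deposited, at -0.92. From pancreas epithelium to its organoids 3 members could be counted and Muc13, again counted only through the epithelium, was lower, where 23.1% of 14984 genes were lower and 18.4% higher. For Muc1 the difference of the averaged organoid level was 1.56 there and the mean of the 3 single differences 1.12, but organoid 1 was below the epithelium (-0.74) and the others were up to 2.06 above it.

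**Figure D4:**
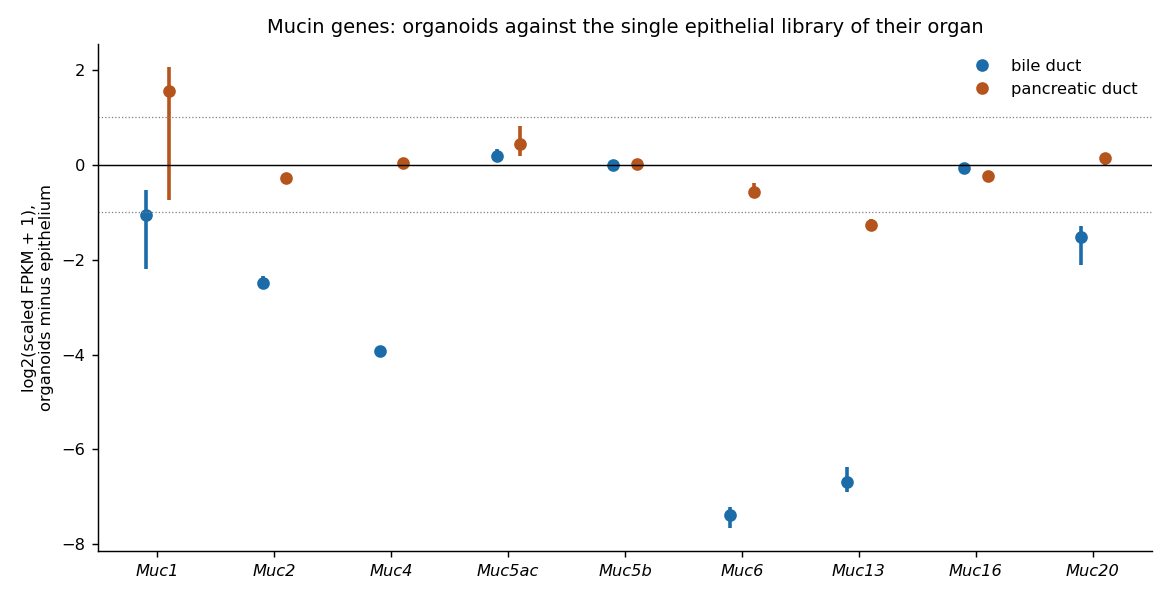
Difference in log2(scaled FPKM + 1) between organoids and the single epithelial library of their organ for each mucin gene, with the level of the 3 organoids' average FPKM as a point (not the mean of their log2 differences), the range of the single organoids as a line, and dotted lines at -1 and 1. In bile duct 6 genes lie below -1, Muc6 and Muc13 furthest at -7.39 and -6.68, and in pancreatic duct Muc1 has the widest range.

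Most intestinal, goblet and gastric markers were higher in bile than in pancreas epithelium, as Muc2, Muc4, Muc6 and Muc13 were. Of the 8 intestinal absorptive markers, 8 were higher in bile duct than in pancreas epithelium by 1 or more, and so were 4 of 4 Paneth cell markers counted, 6 of 7 goblet cell markers and 3 of 4 gastric and duodenal gland markers counted, beside 9.07% of all genes counted. The markers of duct epithelium itself were higher in bile duct in 8 of 9, with a median log2 difference of 1.90, and hepatocyte markers in 4 of 5. In organoids 7 of the 9 duct markers rose, beside 32.3% of all genes tested, with a median log2 difference of 2.32 over the 9. Of 6 acinar and 4 endothelial markers none was higher in bile duct, and 2 and 1 were lower, beside 4.31% of all genes counted. Apoa4, Sis, Lct, Slc15a1, Defa17, Agr2, Retnlb, Tff1, Cftr and Apob were counted only through bile epithelium. They could not have been counted as lower there, so for these genes the count is a description. The absorptive list summed to 400 FPKM in the bile epithelium and 17.1 in the pancreas epithelium, the Paneth list to 253 and 12.8, the goblet list to 2330 and 646 (1885 and 10.1 without Zg16, which was higher in the pancreas epithelium at 636 FPKM than in the bile epithelium at 446), and the gastric and duodenal gland list to 2103 and 265. In organoids the sums ran from 51.5 to 107, 1.70 to 21.7, 31.8 to 159 and 2.40 to 14.8, and a single gene made up most of each. These were Vil1, a microvillus protein at 51.02 to 106 FPKM that rose from 60.2 and 2.59 FPKM in the epithelia (log2 difference 2.29, SE 0.81, limma adjusted p = 0.0440), Mmp7 for the Paneth list at 1.70 to 21.7 FPKM, Tff3 for the goblet list at 29.5 to 148.5 FPKM, and Tff2 for the gastric list at 2.12 to 14.3 FPKM. Apoa4 and Sis (absorptive), Lyz1, Defa17 and Defa22 (Paneth), Retnlb (goblet) and Gkn1 and Gkn2 (gastric) were at 0 in all 6 organoids. Gkn3, a gastric gland protein, had 694 FPKM in the bile epithelium and 15.1 in the pancreas epithelium. Defa17 and Defa22 belong to a family of near-identical genes, so their values are uncertain. The part of these cell types in the mucin differences was not tested.

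The mucus partner list holds genes for proteins that are secreted with mucins, act on them or serve their assembly and release. Of 10 of its transcripts tested between epithelia and organoids, 6 fell and 0 rose, beside 27% and 32.3% of all genes tested, with a median log2 difference of -2.68 beside 0.108 over all genes. Among them Clca1, a goblet cell protease that acts on mucus, reached the filter only through the epithelia. It had 315 FPKM in bile epithelium, 1.30 in pancreas epithelium and 0.0127 to 0.648 in organoids, and Fcgbp, a mucus protein that binds Muc2, had 178, 1.47 and 1.07 to 4.20. Tff2, the trefoil peptide secreted with Muc6, fell from 1373 FPKM in the bile epithelium and 246 in the pancreas epithelium to between 2.12 and 14.3 in organoids (log2 difference -6.49, SE 0.79, limma adjusted p = 0.000394). Agr2, the disulfide isomerase needed for Muc2 assembly, had 295 and 0.852 FPKM in the epithelia and 1.10 to 6.26 in organoids (limma adjusted p = 0.120). Between the organoid groups 0 of 6 passed in limma, and 3 had an unadjusted p under 0.05, beside 2.56% of all genes. Agr2 (log2 difference 1.17) and Fcgbp (1.06) were higher in bile duct and Tff2 (-1.46) in pancreatic duct organoids, each with limma adjusted p = 1.00. For each of these the organoid groups did not overlap, as those of 6.68% of the 12106 genes tested did not.

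The mucin O-glycosylation list held 25 genes in 26 entries, because St6galnac2 is listed under 2 identifiers. Of 21 entries tested between epithelia and organoids, 3 rose and 7 fell, beside 32.3% and 27% of all genes tested, with a median of 0.113 beside 0.108 over all genes. Of the 7, 4 reached the filter only through the epithelia. Gcnt3, which builds the branched cores of mucin sugars, rose to 31.5 to 85.4 FPKM in organoids from 18.5 FPKM in the bile epithelium and 0.421 in the pancreas epithelium (log2 difference 3.03, SE 0.67, limma adjusted p = 0.00687). Galnt3, which starts O-linked chains, rose to 31.6 to 50.07 FPKM from 11.7 and 2.29 (log2 difference 2.56, SE 0.37, limma adjusted p = 0.000914). A4gnt, which caps the sugars of Muc6, had 9.46 FPKM in the bile epithelium and 0.0469 in the pancreas epithelium and was at 0 in all 6 organoids. Between the epithelia 13 of 23 entries counted were higher in bile duct and 1 lower, beside 9.07% and 4.31% of all genes counted. Galnt5, Gcnt3, Chst4, A4gnt and B4galnt3 were counted only through bile epithelium, so they could not have been counted as lower there.

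Of 13 tested genes that regulate goblet cells and mucus, 4 rose in organoids (Foxa2, Foxa3, Cdx2 and Hnf4a) and 2 fell (Spdef and Klf4). These shares are near or below the 32.3% and 27% of all genes tested that rose and fell. Spdef, the goblet cell factor, reached the filter only through the epithelia and so could pass only as lower. It had 10.4 FPKM in the bile epithelium and 1.00 in the pancreas epithelium and at most 0.596 in organoids (limma adjusted p = 0.00572). Cdx2, an intestinal factor known to activate Muc2, had 4.84 and 0.114 FPKM in the epithelia and 4.45 to 20.7 in organoids (log2 difference 2.08, SE 0.75, limma adjusted p = 0.0470), while Muc2 stayed at or below 0.320 FPKM. Hnf4a rose to 61.7 to 101 FPKM from 28.1 and 3.27 (limma adjusted p = 0.00357). The 9 duct epithelium markers had a median log2 difference of 2.32 between epithelia and organoids. The part of cell make-up in the rises of this list was not tested. Between the organoid groups 0 of 10 passed in limma, and 2 had an unadjusted p under 0.05, Foxa1 and Foxa3, beside 2.56% of all genes. They went in opposite directions. Foxa1 had 2.04, 0.632 and 1.94 FPKM in bile duct and 2.60, 2.58 and 3.72 FPKM in pancreatic duct organoids (log2 difference -0.69, SE 0.28, limma adjusted p = 1.00). Foxa3 had 13.01, 19.4 and 16.3 FPKM in bile duct and 8.29, 10.8 and 9.07 FPKM in pancreatic duct organoids (log2 difference 0.71, SE 0.16, limma adjusted p = 1.00). For both Foxa1 and Foxa3 the groups did not overlap, as those of 6.68% of the 12106 genes tested did not.

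Of 15 other mucin-like genes listed, 9 were in the table and 6 could be tested between epithelia and organoids. Of these, 5 were called lower and 0 higher, beside 27% and 32.3% of all genes tested. Muc3a and Emcn reached the filter only through the epithelia, so a lower call was the only one open to these 2. Muc3 and Muc3a, entries on chromosome 5 for intestinal membrane mucins, had 60.8 and 8.68 FPKM in bile epithelium, 1.03 and 1.17 in pancreas epithelium and at most 1.74 and 0.208 in organoids (limma adjusted p = 0.0167 and 0.00347). GENCODE M21 tags Muc3a as touched by a reference genome error, so its values are uncertain. Emcn, Mcam and Podxl, which are prominent in vessels, were the other 3 called lower. Cd164, a sialomucin of many cell types, was between 61.5 and 92.3 FPKM in all 8 libraries (log2 difference -0.39, SE 0.16, limma adjusted p = 0.0789).

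The genes whose log2(scaled FPKM + 1) was most like that of a member were sought among 7436 genes with at least 10 FPKM in some library, over all 8 libraries. For Muc1 they were Selenbp1 (Pearson r = 0.906), Appl2 (0.894) and Rbp4 (0.888). These are the highest of 7436 coefficients over 8 points, of which 1 exceeded 0.9. Rbp4 had 11.2, 6.597 and 2.14 FPKM in bile duct and 2.35, 14.8 and 14.3 in pancreatic duct organoids, low in the same cultures as Muc1. For Muc13 they were Apobec2, Mep1b and Adamdec1 (0.998 or more), for Muc6 they were Adh6a, Igkv5-48 and Ighv2-6 (0.998 each), and for Muc4 they were Igkv13-84, Ang4 and Igkv4-55 (1.00 each). The last 9 coefficients rest on the bile epithelium library alone, and 41 to 51 genes had a coefficient over 0.99 with each of these mucins. All 8 points share a few cultures of 2 organs and are not independent of cell make-up, and immunoglobulin segments are near-identical genes whose values are uncertain.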

How the data were processed

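The values were deposited by the authors in 1 table with 1 column per library and are read here as FPKM from their steps, since no header names the unit. No column of per-sample values was left aside. The submitters' processing notes name Bowtie2 2.2.3, HISAT2 2.1.0, TopHat2 and HTSeq 0.6.0 with no role or order. Build, filters, strand and the treatment of reads matching several places are not given in the sources used here, and Gapdh, which has many processed copies, was listed at only 5.70 to 18.4 FPKM, so tandem repeats and gene copies may be undercounted. FPKM times merged exon length in GENCODE M21 fell on whole reads, by a step found per library, within 0.05 of a read for 28306 genes (90.6%), all 9 mucins included. Samples were grouped by their titles. The closest organoid pair differed beyond sampling noise (chi-square per degree of freedom 17.5).

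Libraries were scaled by a trimmed mean of log ratios (30% of ratios and 5% of levels trimmed on each side, no weights), and log2(FPKM + 1) was tested with limma 3.58.1 with an intensity trend in R 4.3.3, with Benjamini-Hochberg adjustment over all genes tested and a threshold of 0.05. Filters were 1 FPKM in at least 3 organoids, or in at least 2 of 8 libraries. Ratios of reads have exact binomial intervals and levels exact Poisson intervals (95%). A floor of 3 reads for a count of 0 was set apart from these intervals. The scripts were tested on simulated data. Python 3.11.15 was used for the rest. All 9 members are named, and of other lists the most abundant or passing genes and those set beside a member. For members with at least 10 FPKM the 3 genes most alike are named. The members and lists were chosen with earlier results of these data known. Genes named outside the rule (Gapdh, Galnt2, the neighbours of Muc1, A4gnt, Upk3b, Wt1, Krt14 and those beyond 4 a list among them) were chosen after their values were seen. Alternatives covered scaling, pseudocount, filter, trend, voom on recovered reads, the replicate block and each library left out.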

Additional observations from a re-analysis of the deposited data

How the results depend on the processing

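The organoid comparison called 0 mucins under every alternative run, and with the replicate block, too, it called 0 in limma. Same-numbered organoids of the 2 organs share only a number: their deviations correlated at -0.104, -0.441 and 0.481, and not every sample correlated best with its own number. Over all genes limma called 0, and 11 without pancreatic duct organoid 3. The Muc1 difference between organoid groups ran from -1.40 to 0.01407 with 1 organoid left out. Between epithelia and organoids the count of mucins was 3 with no filter (Muc2, Muc13 and Muc16), 0 with at least 10 FPKM, where Muc13 could not be tested, and 0 to 1 with 1 library left out, the 0 being without bile epithelium. Without pancreas epithelium the count of 1 was Muc20. Over all genes 8837 passed, 11480 with no filter and 4684 with at least 10 FPKM. The Muc1 difference there was 0.10 with FPKM as deposited and -1.20 to 1.12 with 1 library left out, and that of Muc20 ran from -1.57 to 0.13. The cause of these shifts was not tested. Median of ratios scaling moved the median of all genes between epithelia and organoids from 0.108 to -0.0356, and FPKM as deposited moved it to 0.228. Called genes were 4813 higher and 4024 lower in organoids, 3926 and 4640 with median of ratios scaling, and 5497 and 3659 with FPKM as deposited, so which direction held more calls turned with the scaling. Voom on recovered reads also called Muc13 alone, at -7.78. In pancreatic duct the count of mucins below their epithelium was 0 with at least 10 FPKM, where Muc13 was not counted, and the count in either direction was 1 to 2 with 1 organoid left out, the 2 being without pancreatic duct organoid 1, when Muc1 counted as higher. A pseudocount of 0.1 widened the differences of weak genes, to 6.78 for Muc4 between the epithelia and -2.95 for Muc13 in pancreatic duct. Below about 1 FPKM the values rest on few reads.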
